A study of Caenorhabditis elegans with 10 samples.

Results

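The homeobox genes named ceh (C. elegans homeobox) were followed through sexual maturation in males and hermaphrodites of the nematode Caenorhabditis elegans. Members are all genes whose symbol is ceh followed by a number. Sequence names in the count tables were matched to symbols through the Ensembl annotation of the assembly WBcel235. The rule found 63 genes among the 46589 that the tables list, and all 63 are annotated as protein coding. Of these, 18 lie on chromosome X, 13 on II, 12 on V, 8 on I, 8 on III and 4 on IV.

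Whole-animal RNA was sequenced from males and from hermaphrodites of a him-5 strain, in which loss of the X chromosome at meiosis yields many males. Both sexes carry the him-5 mutation, and both were raised at 20 °C on NGM agar seeded with OP50. Each sex had 1 library at each of 5 windows, timed from hatching. Late L3 larvae were taken at 30 to 34 h, early L4 larvae at 36 to 40 h and late L4 larvae at 42 to 46 h, and young adults at 48 to 52 h and again at 54 to 58 h. The 10 libraries held between 8189325 gene reads (hermaphrodites, 42 to 46 h) and 27907544 gene reads (males, 36 to 40 h), of which 2013 to 8245 fell on ceh genes. No sex and window was replicated, so each test takes its error from the spread across windows. The labels name no separate cultures behind the libraries, so the p-values reflect the spread among these 10 samples alone, which may be technical.

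Homeobox genes encode transcription factors that bind DNA through a homeodomain. They fix positional identity along the body axis, the identity of individual neuron types and the development of organs such as the pharynx and the gonad. Classes are told apart by the homeodomain and by partner domains: CUT and ONECUT proteins carry a cut domain, POU proteins a POU-specific domain, LIM proteins a pair of zinc-binding LIM domains, and PBC proteins act as cofactors of Hox proteins. In C. elegans the CUT genes are known to act together on the genes that all neurons use, and the PBC gene ceh-60 is known to activate yolk genes in the intestine together with the MEIS-type gene unc-62. Of the 63 members, 33 were placed in such a class and 30 were not. The gene ceh-44, a further CUT gene, carries another symbol in this annotation and is not analysed here.

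Sex labels were read against gene lists before the ceh genes. The summed level of 6 yolk protein genes was 49.9, 5.62, 394, 137 and 503 CPM in males from 30 to 34 h to 54 to 58 h, against 70.9, 208, 9730, 39500 and 42400 CPM in hermaphrodites. CPM (counts per 1000000 gene reads) was taken after TMM scaling, which sets a common level for most genes across libraries. Late L4 males and the older of the young adult males thus held more yolk RNA than the other male libraries, and 25.38% of the reads of the male library of 54 to 58 h were not aligned, against 3.31% to 13.49% in the other 9 libraries. Results are given without these libraries where they change. In whole animals, fewer cells of a type and less RNA per cell cannot be told apart.

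The ceh genes were read at low levels. All 63 had reads in at least 1 library, and 40 reached 1 CPM in at least 2 of 10 libraries and were tested. The median mean level of the 40 was 2.78 reads per kilobase of exon per 1000000 scaled gene reads (RPKM), against 10.5 over the 15924 genes tested. Of the 40, 11 reached that level in 2 libraries of 1 sex only: ceh-2, ceh-23, ceh-31, ceh-57 and ceh-63 in males, and ceh-14, ceh-33, ceh-40, ceh-49, ceh-83 and ceh-84 in hermaphrodites. ceh-30 reached it in 1 library of each sex. The filter thus took in most of these genes through the sex in which they were read more, and their calls are not independent of it.

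Levels per length were led by ceh-38, a broadly expressed ONECUT gene, with a mean of 18.1 RPKM over the 10 libraries. It was followed by ceh-100 with 14.5, ceh-92 with 11, the pan-neuronal ONECUT gene ceh-48 with 9.07, and the PBC gene ceh-20 with 8.19 on the same scale. The labial-like Hox gene ceh-13, known for its role in the anterior body, came next with 7.69. These levels are means over libraries that differ strongly for some genes, so the order of the neighbours is a description only. The summed level of all members was 315, 252, 241, 231 and 242 CPM in males and 256, 230, 317, 489 and 557 CPM in hermaphrodites in order of time. The sum was higher in males at the first pair of windows and higher in hermaphrodites at the last 3.

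**Figure D1:**
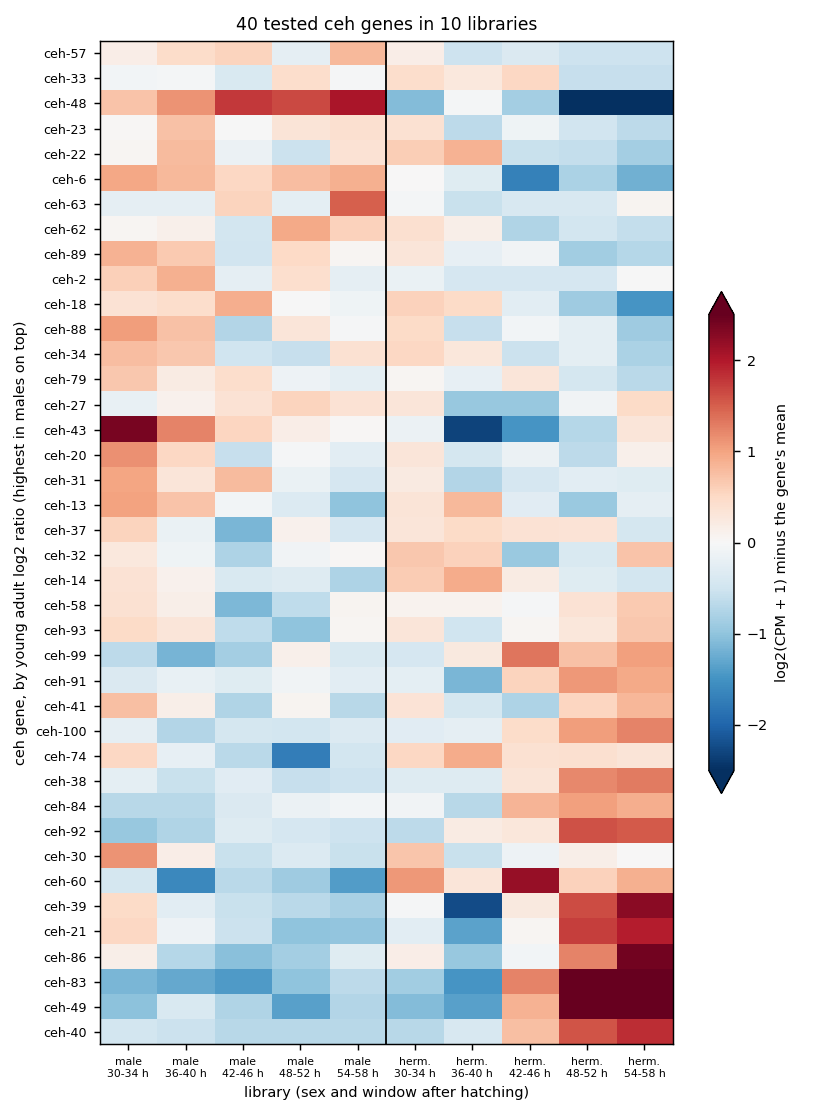
Each row is a tested ceh gene, each column a library (5 male windows on the left, 5 hermaphrodite windows on the right), and colour is log2(CPM + 1) minus the gene's mean over the 10 libraries, with values beyond 2.5 drawn in the end colours. The strongest contrasts are the hermaphrodite libraries of 48 to 52 h and 54 to 58 h, where ceh-48 is at its lowest and ceh-83 and ceh-49 at their highest.

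Over the whole course, 3 ceh genes differed between the sexes: ceh-48 and ceh-6 were higher in males and ceh-60 was lower. ceh-48 encodes a ONECUT factor found throughout the nervous system, ceh-6 a POU factor known for the excretory canal and a rectal cell, and ceh-60 the PBC factor of yolk activation. No other member passed the test.

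ceh-48 had 16.5, 22.4, 35.3, 32.9 and 43 CPM in males from the first window to the last, against 4.07, 9.37, 4.92, 0.749 and 0.675 CPM in hermaphrodites. Every male library lay above every hermaphrodite library, and the gap widened in adults. The log2 ratio of males over hermaphrodites was 3.39 ± 0.83 (approximate SE, edgeR's quasi-likelihood test with window as a block, Benjamini-Hochberg adjusted p = 0.0336). ceh-6 had 7.39, 6.55, 5.14, 6.36 and 6.94 CPM in males and 3.34, 2.51, 0.343, 1.5 and 0.878 CPM in hermaphrodites. The groups did not overlap here either, and males kept a nearly even level while hermaphrodites were lower in the last 3 windows. Its log2 ratio was 2.21 ± 0.55 (edgeR adjusted p = 0.0351).

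ceh-60 had 2, 0.335, 1.54, 1.19 and 0.54 CPM in males, against 7.61, 4, 17.4, 5.06 and 6.48 CPM in hermaphrodites. The groups did not overlap, and the highest hermaphrodite value lay at late L4. The summed yolk level of hermaphrodites was 9730 CPM there after 208 CPM at early L4. In young adults yolk stood at 39500 and 42400 CPM, while ceh-60 was back at 5.06 and 6.48 CPM. The hermaphrodite slope of ceh-60 was -0.03 ± 0.32 log2 per step of 6 h (edgeR adjusted p = 0.956). Its log2 ratio was -2.91 ± 0.5 (edgeR adjusted p = 0.0198). The gene shares 72 exon bases (5.41% of its exons) with ets-4 on the opposite strand, and whether the counting used strand is not given in the sources used here.

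These genes, 2 higher and 1 lower, are 5% and 2.5% of the 40 tested members. Over all tested genes 15.3% were called higher in males and 3.56% lower. All 5 male libraries lay above all 5 hermaphrodite libraries for ceh-6 and ceh-48 alone among the members, against 13.3% of all tested genes, and the reverse held for ceh-60 alone, against 4.86% of all tested genes. The median log2 ratio was -0.27 over the 40 members and 0.21 over all tested genes.

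Calls over the course rest on few libraries. Without the male library of 42 to 46 h the edgeR adjusted p was 0.0908 for ceh-48, 0.108 for ceh-6 and 0.0597 for ceh-60, and without the male library of 54 to 58 h it was 0.0349, 0.0839 and 0.0187 for the same genes in that order. Without the window of 48 to 52 h, it was 0.112 for ceh-48, 0.12 for ceh-6 and 0.071 for ceh-60. The log2 ratios kept their sign in each of these fits. Over all tested genes 311, 2032 and 116 were called in these fits in the same order, in place of 3003.

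ceh-92, with a log2 ratio of -1.23 ± 0.38 (edgeR adjusted p = 0.0553), and ceh-100, with -0.91 ± 0.31 (0.0744), did not pass the test over the course. Other genes looked up by name also missed it in edgeR: ceh-38 had -0.88 ± 0.37 (adjusted p = 0.116), ceh-18 had 0.7 ± 0.38 (0.197), ceh-20 had 0.36 (0.498), ceh-22 had 0.82 (0.592), ceh-39 had -0.86 (0.588), ceh-13 had 0.13 (0.817) and ceh-30 had -1.01 (0.633). ceh-22 is the NK2-type gene of pharyngeal muscle and the distal tip cell, and ceh-30 is the Bar-type gene that keeps the male-specific CEM neurons alive.

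**Figure D2:**
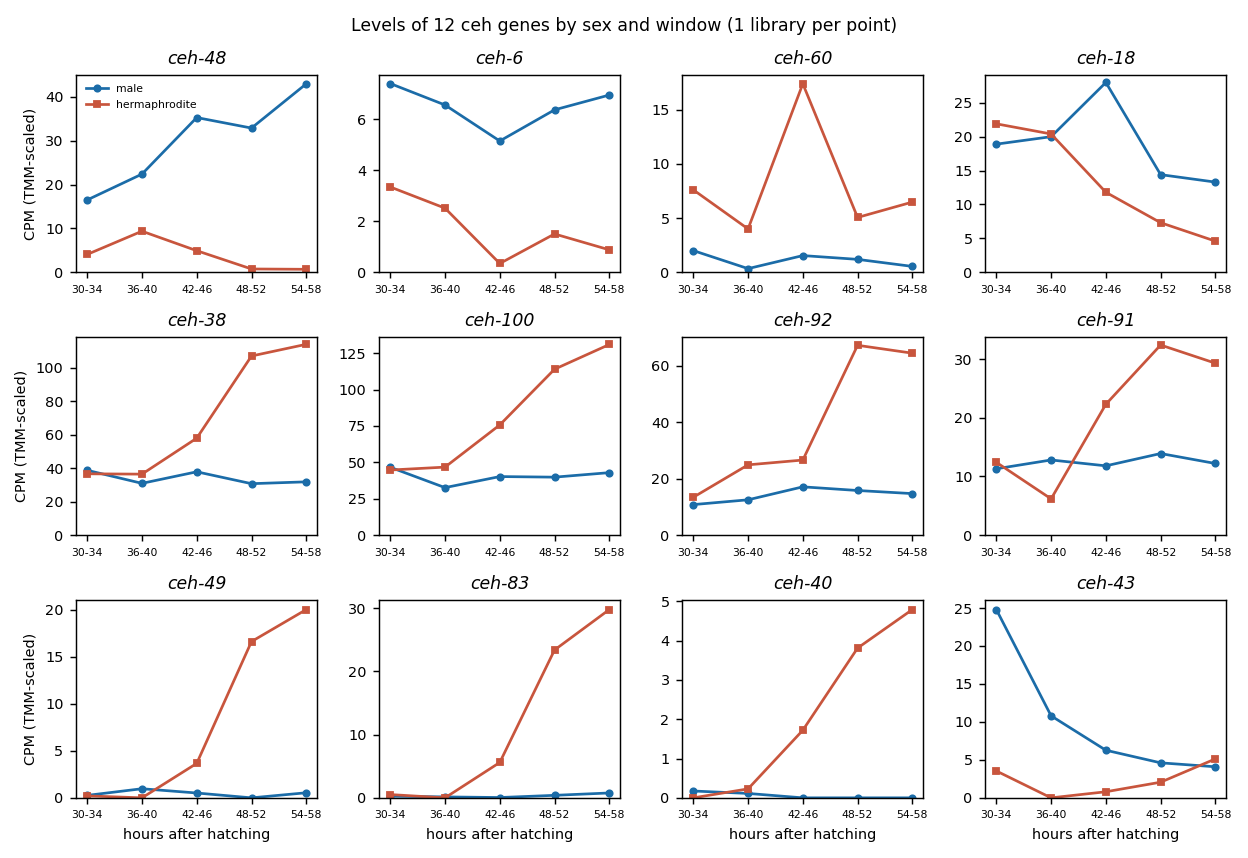
CPM (TMM-scaled, linear axes from 0) of 12 ceh genes at the 5 windows, with males as blue circles and hermaphrodites as red squares, 1 library per point. Male levels of ceh-38, ceh-100, ceh-92 and ceh-91 stay between 10.8 and 46.6 CPM throughout, and hermaphrodite levels of the same genes are higher from 42 to 46 h on.

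In hermaphrodites 12 ceh genes changed with age. Of the 40 tested members, 8 rose from late L3 to young adult in hermaphrodites and 4 fell, which is 20% and 10%, against 20.9% and 16.9% of all tested genes. The rising group held 3 CUT genes (ceh-49, ceh-21 and ceh-38), the PBC gene ceh-40, and ceh-83, ceh-92, ceh-91 and ceh-100, which were placed in no class. The falling group held ceh-48, the POU gene ceh-18, the NK gene ceh-22, and ceh-57. The test was a slope on window, in log2 per step of 6 h, in 1 edgeR fit to all 10 libraries.

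The 3 highest slopes belonged to genes almost unread at L3 and early L4. These genes, ceh-49, ceh-83 and ceh-40, reached 1 CPM only in the hermaphrodite libraries from 42 to 46 h on. They passed the filter through the libraries in which they were high, so their slopes and calls are not independent of it. ceh-49, a CUT gene, had 0.261, 0.968, 0.514, 0 and 0.54 CPM in males and 0.208, 0, 3.66, 16.6 and 20 CPM in hermaphrodites. Its hermaphrodite slope was 2 ± 0.55 (edgeR adjusted p = 0.0223). ceh-83 had 0.261, 0.149, 0.0514, 0.398 and 0.771 CPM in males and 0.521, 0, 5.6, 23.4 and 29.8 CPM in hermaphrodites, with a hermaphrodite slope of 1.8 ± 0.46 (0.0169). In both genes the hermaphrodite libraries from 42 to 46 h on stood above every male library, and the earlier ones did not.

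ceh-40, a PBC gene known to share embryonic roles with ceh-20, had 0.174, 0.112, 0, 0 and 0 CPM in males, against 0, 0.228, 1.72, 3.81 and 4.79 CPM in hermaphrodites. Its hermaphrodite slope was 1.69 ± 0.43 (edgeR adjusted p = 0.0164). No read fell on it in the last 3 male libraries.

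Other rising genes were well read from the start. ceh-38 had 38.7, 30.9, 37.8, 30.7 and 31.8 CPM in males and 36.6, 36.4, 57.9, 107 and 114 CPM in hermaphrodites. Its hermaphrodite slope was 0.48 ± 0.08 (edgeR adjusted p = 0.0026). The hermaphrodite values lay within the male range at L3 and early L4 and above it afterwards. ceh-100 had 46.6, 32.6, 40.2, 39.8 and 42.9 CPM in males and 44.7, 46.7, 75.7, 114 and 131 CPM in hermaphrodites, with a hermaphrodite slope of 0.44 ± 0.07 (0.00276).

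ceh-92 had 10.8, 12.5, 17.1, 15.8 and 14.7 CPM in males, against 13.4, 24.9, 26.6, 67.3 and 64.5 CPM in hermaphrodites. It was the only gene of this group whose hermaphrodite level exceeded the male level at each of the 5 windows, and its hermaphrodite slope was 0.6 ± 0.1 (edgeR adjusted p = 0.00334). ceh-91 had 11.3, 12.8, 11.8, 13.9 and 12.2 CPM in males and 12.4, 6.17, 22.3, 32.4 and 29.3 CPM in hermaphrodites. Its slope in hermaphrodites was 0.45 ± 0.15 (0.0434).

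ceh-21 moved in both directions. This CUT gene had 7.56, 4.47, 3.13, 1.99 and 2 CPM in males and 3.96, 1.37, 5.15, 18.7 and 22.4 CPM in hermaphrodites. Males were higher at the first pair of windows and hermaphrodites at the last 3. Its hermaphrodite slope was 0.79 ± 0.21 (edgeR adjusted p = 0.0183).

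Of the falling genes, ceh-18 was the best read. It is known from the gonadal sheath, where it acts on oocyte maturation, and is expressed in muscle and epidermis as well. It had 18.9, 20, 28, 14.4 and 13.3 CPM in males, against 21.9, 20.4, 11.8, 7.31 and 4.59 CPM in hermaphrodites, and the hermaphrodite level was lower at each later window. The hermaphrodite slope was -0.6 ± 0.12 (edgeR adjusted p = 0.00654).

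The summed level of 5 body wall muscle genes was 7350 to 11700 CPM in males without order in time, and 7910, 6370, 5020, 4990 and 3090 CPM in hermaphrodites. Its part in the slope of ceh-18 was not tested. ceh-48 fell by 0.95 ± 0.28 per step in hermaphrodites (edgeR adjusted p = 0.0283). ceh-22 fell by 1.59 ± 0.49 per step (0.0332): it had 0.869, 2.12, 0.616, 0.239 and 1.31 CPM in males, against 1.77, 2.28, 0.229, 0.187 and 0 CPM in hermaphrodites. ceh-57 fell by 1.58 ± 0.53 (0.046), from low levels: it had 0.608, 0.968, 1.13, 0.239 and 1.54 CPM in males and 0.625, 0, 0.114, 0 and 0 CPM in hermaphrodites.

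Germline and yolk RNA rose in the same hermaphrodite libraries as the 8 rising genes. All 9 of the listed oocyte genes and all 9 of the listed shared germline genes were called rising. Their summed levels were 163 to 551 CPM for oocyte genes and 360 to 588 CPM for germline genes in males, and 150 to 12800 CPM and 388 to 2170 CPM for the same lists in hermaphrodites. None of the listed genes was at 0 in every library. The part of the germline in the rise of the ceh genes was not tested.

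Fewer ceh genes were called rising or falling in hermaphrodites when an adult window was left out. Without 54 to 58 h, 3 were called in place of 12 (ceh-38, ceh-100 and ceh-92). Without 48 to 52 h, 5 were called, the same 3 with ceh-49 and ceh-18. Over all tested genes 1922 and 3022 were called in the same order, in place of 6016, so the drop was not particular to the ceh genes.

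In males no ceh gene changed with age by edgeR's quasi-likelihood test, and 0.59% of all tested genes did. At an unadjusted p under 0.05, 6 of the 40 tested members had a slope in males, against 3084 of all 15924 tested genes. DESeq2 called 1 member, ceh-13, against 1983 of all tested genes, and limma-voom called none, against 931. ceh-13 had 13.6, 11, 5.91, 4.77 and 2.62 CPM in males and 8.13, 11.8, 5.03, 2.81 and 5.27 CPM in hermaphrodites. The male values were lower at each later window, and the hermaphrodite values were not. The male slope was -0.59 ± 0.17 by edgeR (adjusted p = 0.116).

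ceh-43, the Distal-less gene of anterior epidermis and dopaminergic neurons, showed a similar course without passing the test. It had 24.8, 10.8, 6.27, 4.61 and 4.09 CPM in males and 3.54, 0, 0.801, 2.06 and 5.13 CPM in hermaphrodites. The male slope was -0.65 ± 0.37 by edgeR (adjusted p = 0.38). ceh-20, the PBC cofactor of Hox genes, had 22.6, 14.4, 6.21, 9.54 and 7.94 CPM in males and 12.1, 6.85, 8.69, 5.81 and 10.6 CPM in hermaphrodites. Its male slope was -0.36 ± 0.15 (edgeR adjusted p = 0.219), and its lowest male value lay at late L4.

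The slopes themselves differed between the sexes for 4 ceh genes. The slope of ceh-48 was higher in males by 1.2 ± 0.27 log2 per step (edgeR adjusted p = 0.0367). It was lower in males for ceh-21 by a difference of -1.36 ± 0.29 (0.0347), for ceh-38 of -0.54 ± 0.11 (0.0302) and for ceh-100 of -0.43 ± 0.09 (0.0308). These are 2.5% and 7.5% of the tested members, against 5.6% and 10.2% of all tested genes. With library size as the only scaling 1 of these calls was left, ceh-21, and 0 were left without the male library of 42 to 46 h or that of 54 to 58 h. Over all tested genes 1407 were called with library size only, in place of 2519, and 0 without either of these male libraries. The loss without a male library was thus not particular to the ceh genes. At these settings the adjusted p lay between 0.0464 and 0.0765 with library size only, and between 0.0577 and 0.205 without 1 of these male libraries. ceh-40 and ceh-49, with larger hermaphrodite slopes, did not pass this test (edgeR adjusted p = 0.0901 and 0.116).

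In young adults, where 2 male libraries were set against 2 hermaphrodite libraries, 21 of the 40 tested ceh genes differed between the sexes. Higher in males were 8 genes, among them ceh-48, the POU genes ceh-6 and ceh-18, and the Six-type gene ceh-33. Lower in males were 13 genes, among them the CUT genes ceh-49, ceh-21, ceh-39 and ceh-38 and the PBC genes ceh-40 and ceh-60. The shares are 20% of members higher and 32.5% lower, against 33% and 29.4% of all tested genes. The median log2 ratio was -0.26 over the members and 0.31 over all tested genes. These libraries are also part of the tests over the course, so the comparisons are not independent.

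**Figure D3:**
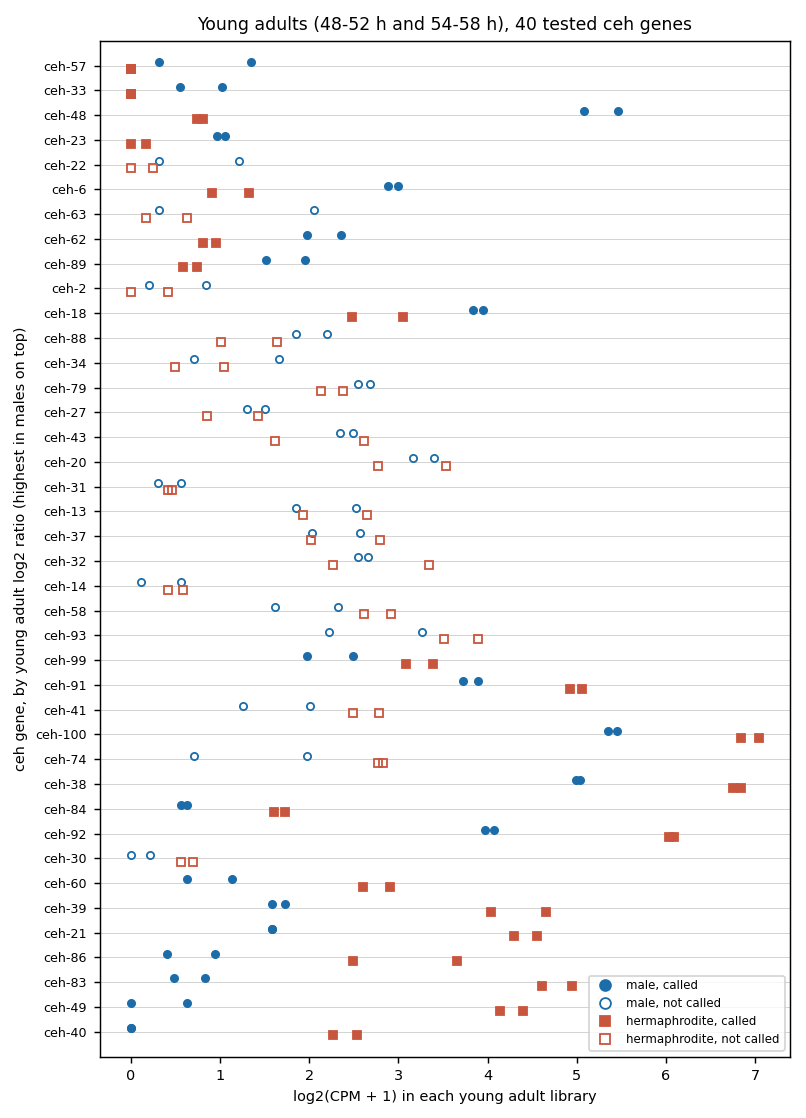
Points are log2(CPM + 1) in each of the 2 male (blue circles) and 2 hermaphrodite (red squares) young adult libraries for the 40 tested ceh genes, filled where edgeR's young adult test called the gene. The 8 filled genes at the top are higher in males, and the 13 filled genes at the bottom are lower in males.

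The CUT and ONECUT class was divided. Of its 6 tested members, 1 was higher in adult males and 4 were lower, and ceh-41 was not called. ceh-48 had 972 reads in the male libraries together and 22 in the hermaphrodite libraries, a 53.3-fold difference (95% exact binomial interval 35 to 85.5, counting error only) and a log2 ratio of 5.72 ± 0.34 (edgeR adjusted p = 0.000303). ceh-49 had 7 reads in males and 562 in hermaphrodites, with a log2 ratio of -6.02 ± 0.82 (0.002).

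ceh-39 is known as a signal element that counts X chromosomes in the embryo through repression of xol-1. It had 6.34, 3.39, 2.57, 2.31 and 2 CPM in males, against 4.17, 0.114, 5.26, 15.4 and 24.1 CPM in hermaphrodites. The young adult groups lay far apart, and the larval values overlapped. Its young adult log2 ratio was -3.19 ± 0.37 (edgeR adjusted p = 0.0013). ceh-21 had -3.36 ± 0.31 (0.00077) and ceh-38 had -1.82 ± 0.2 (0.00106) in the same fit.

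Beside ceh-48, the summed level of 12 pan-neuronal genes was 608, 745, 717, 675 and 664 CPM in males and 441, 359, 230, 181 and 159 CPM in hermaphrodites. Of these 12 genes, 10 were called higher in young adult males and 1 lower, with a median log2 ratio of 2.76. The list reached 5.35 ± 0.31 for rab-3, its highest value, and 4.24 ± 0.31 for snt-1. ceh-48 at 5.72 ± 0.34 lay slightly above rab-3, and no test sets ceh-48 apart from the list. Scaled to the summed level of this list instead of by TMM, ceh-48 had a log2 ratio of 3.76 ± 0.47 (edgeR adjusted p = 9.59e-06). In that sum snb-1, the gene called lower, gave 72.8 of 181 and 83.2 of 159 CPM in the young adult hermaphrodite libraries. The scaling moves all genes of a library by the same factor, so it does not set ceh-48 apart from the list.

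Both POU genes were higher in adult males. ceh-6 had 170 reads in the male libraries and 37 in the hermaphrodite libraries, with a log2 ratio of 2.47 ± 0.47 (edgeR adjusted p = 0.00593). Scaled to the pan-neuronal genes the young adult ratio of ceh-6 was 0.52 (0.415) and its ratio over the course 0.81 (0.188), so both calls were lost. ceh-18 had 353 and 185 reads in the same order, with a ratio of 1.21 ± 0.34 (0.0227). That call was lost without any 1 of 3 libraries, with an adjusted p of up to 0.114, and its direction turned under pan-neuronal scaling, to -0.74 (0.12).

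Of the PBC genes, 2 of 3 were lower in adult males. No read of ceh-40 fell in the male libraries, against 132 in the hermaphrodite libraries, so its level was at least 36.5-fold lower in males, taking 3 reads over the group as the limit that 0 reads allow. ceh-60 had 22 reads in males and 177 in hermaphrodites, with a log2 ratio of -2.73 ± 0.56 (edgeR adjusted p = 0.00768). ceh-20 had a ratio of 0.09 (0.852), which turned to -1.91 (0.00206) under pan-neuronal scaling.

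Beside ceh-60, all 6 listed yolk genes were called lower in young adult males, with a median log2 ratio of -6.98. The MEIS-type partner gene unc-62 had 45.3, 32.5, 32.1, 31.1 and 18.7 CPM in males and 36.7, 28.3, 37.7, 47.3 and 50.2 CPM in hermaphrodites. Its young adult log2 ratio was -0.97 ± 0.3 (edgeR adjusted p = 0.0312).

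Among the Six-type genes, ceh-33 had 19 reads in adult males and none in adult hermaphrodites, at least 7.64-fold higher in males. In larvae the direction was the reverse, with 0.434, 0.447 and 0.154 CPM in males and 1.04, 0.8 and 1.14 CPM in hermaphrodites. ceh-34, known for the pharyngeal nervous system, and ceh-32, known for the head, were not called in young adults. The 2 tested NK genes, the 3 tested Hox-related genes, the 2 tested Bar genes, the 1 tested LIM gene and the 1 tested paired-like gene had no call in this comparison. ceh-13 had a log2 ratio of -0.13 (edgeR adjusted p = 0.853), ceh-22 of 2.9 (0.143) and ceh-30 of -2.67 (0.14).

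ceh-30, the gene of male CEM neuron survival, had 2.17, 0.633, 0, 0.159 and 0 CPM in males and 1.36, 0, 0.343, 0.625 and 0.473 CPM in hermaphrodites. Its reads in young adults were 2 in males and 17 in hermaphrodites, a ratio of 0.142 (0.0159 to 0.598, counting error only). The sexes overlapped in larvae. The untested NK gene ceh-24, known from vulval muscle, had 14 reads in adult males and 3 in adult hermaphrodites, a ratio of 5.63 (1.57 to 30.6).

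Members placed in no class gave 11 of the 21 young adult calls, 4 higher and 7 lower. ceh-83 had 15 reads in adult males and 816 in adult hermaphrodites, with a log2 ratio of -5.48 ± 0.42 (edgeR adjusted p = 0.000494). ceh-86 had 1.65, 0.447, 0.154, 0.318 and 0.925 CPM in males and 1.67, 0.228, 1.26, 4.62 and 11.6 CPM in hermaphrodites. The sexes overlapped until late L4, and the young adult ratio of ceh-86 was -3.68 ± 0.74 (0.00707). ceh-92 had -2.11 ± 0.21 (0.000914), ceh-100 had -1.57 ± 0.2 (0.00168) and ceh-91 had -1.24 ± 0.24 (0.0061).

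The weaker calls of this group were ceh-84 with a log2 ratio of -2.07 ± 0.65 (edgeR adjusted p = 0.0334) and ceh-99 with -1.17 ± 0.39 (0.042). Higher in males were ceh-62 with 2.06 ± 0.55 (0.02) and ceh-89 with 1.99 ± 0.66 (0.0403). ceh-23, known from sensory neurons and interneurons, had 26 reads in males and 2 in hermaphrodites, a ratio of 15.7 (3.93 to 136). ceh-57 had 23 reads in males and none in hermaphrodites, at least 9.25-fold higher in males.

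Of the 21 young adult calls, 12 were kept whichever of the 4 libraries was left out. The other 9 were lost in at least 1 such fit, with a highest edgeR adjusted p of 0.114 for ceh-18, 0.133 for ceh-23, 0.122 for ceh-33, 0.199 for ceh-57, 0.102 for ceh-62, 0.118 for ceh-84, 0.167 for ceh-89, 0.0629 for ceh-91 and 0.189 for ceh-99. The call of ceh-91 was lost only without males of 54 to 58 h. Those of ceh-33, ceh-84 and ceh-89 were lost without any 1 of the 4 libraries. Each such fit leaves a lone library in 1 sex. Over all tested genes, too, fewer were called in each of these fits than with all 4 libraries.

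Young adult directions depended on the scale. Scaling to the 12 pan-neuronal genes gave a median log2 ratio of -1.61 over all tested genes, where TMM gave 0.308, and of -2.24 over the members, where TMM gave -0.26. Under it 1 ceh gene, ceh-48, was called higher in males and 24 lower, in place of 8 and 13, which is 2.5% and 60% of the members, against 15.3% and 54.1% of all tested genes under that scaling. The calls lost were those of ceh-6, ceh-18, ceh-23, ceh-33, ceh-57, ceh-62 and ceh-89. Over the course the same scaling gave 1 higher and 16 lower in place of 2 and 1 (2.5% and 40% of the members, against 9.68% and 44.4% of all tested genes), and a median of -1.2 over all tested genes in place of 0.209. Scaling by library size alone gave a young adult median of 0.62 over all tested genes and 8 members higher and 11 lower. These are 20% and 27.5% of the members, against 37% and 24% of all tested genes. Scaling by library size lost the calls of ceh-84 (edgeR adjusted p = 0.0562) and ceh-99 (0.0917). Under pan-neuronal scaling 8 young adult ratios turned negative, that of ceh-18 among the calls and those of ceh-2, ceh-20, ceh-27, ceh-34, ceh-43, ceh-79 and ceh-88 among genes not called with TMM. Of these 8, ceh-20, ceh-43 (-1.73, edgeR adjusted p = 0.0129) and ceh-79 (-1.53, 0.00879) were then called lower. Over the course 10 uncalled ratios turned negative under it, those of ceh-13, ceh-18, ceh-20, ceh-22, ceh-33, ceh-34, ceh-62, ceh-79, ceh-88 and ceh-89. With library size only, the uncalled young adult ratios of ceh-13, ceh-31 and ceh-37 turned positive.

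**Figure D4:**
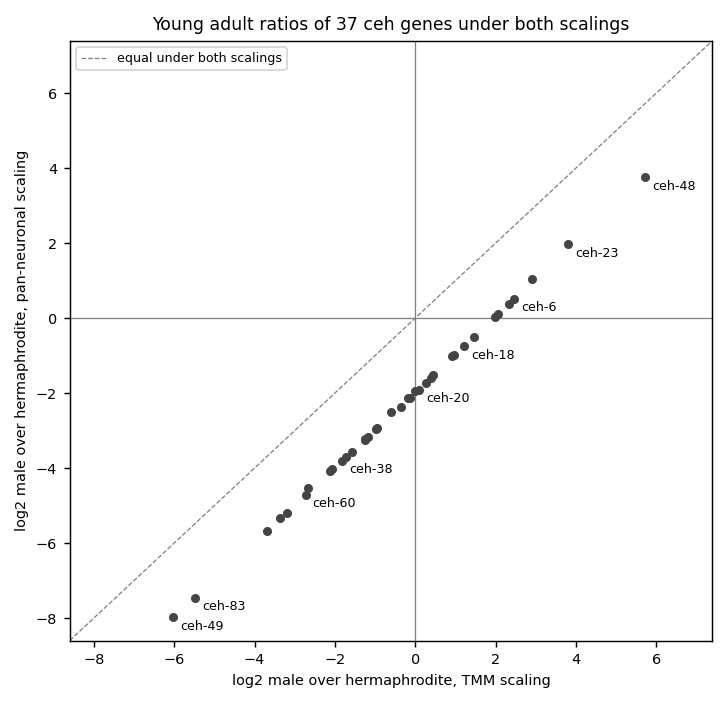
Young adult log2 ratios of males over hermaphrodites for 37 ceh genes with reads in both sexes, with TMM scaling on the horizontal axis and scaling to 12 pan-neuronal genes on the vertical axis. All points lie below the dashed line of equal ratios, and ceh-48, at 5.72 and 3.76, is the highest under both.

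Window by window, these comparisons set 1 library against 1 and have no test. A gene was counted when its CPM + 1 differed at least 2-fold and the higher library had at least 2 CPM. Taking both directions together, 3, 9, 11, 18 and 19 of the 40 members were counted in order of time (7.5%, 22.5%, 27.5%, 45% and 47.5%), against 16.1%, 24.6%, 35.1%, 50.8% and 56% of all tested genes, so the larger counts at later windows were not particular to the ceh genes. Ratios below are of CPM, and where 1 sex had no read the limit from 3 reads stands in for its level. At 30 to 34 h, 2 members were higher in males and 1 was lower, 5% and 2.5%, against 13% and 3.08% of all tested genes. ceh-43 led, with 285 reads in males and 34 in hermaphrodites (ratio 6.99, 4.89 to 10.3), followed by ceh-48 with a ratio of 4.06, and ceh-60 was lower with 0.263.

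At 36 to 40 h, 6 members were higher in males and 3 lower, 15% and 7.5%, against 19.4% and 5.2% of all tested genes. ceh-43 had 290 reads in males and none in hermaphrodites, at least 31.5-fold higher in males. ceh-39 had 91 reads in males and 1 in hermaphrodites (ratio 29.6, 5.19 to 1180), and ceh-88 had a ratio of 3.48. The lowest ratios were those of ceh-60 at 0.0838, ceh-99 at 0.259 and ceh-74 at 0.397. The hermaphrodite library of this window had 8233794 gene reads and the male library 27907544, so a gene at 0 reads was less closely bounded in hermaphrodites.

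At 42 to 46 h, 4 members were higher in males and 7 lower, 10% and 17.5%, against 25.2% and 9.87% of all tested genes. The highest ratios were those of ceh-6 at 15 (4.98 to 73.8), of ceh-43 at 7.83 (3.69 to 19.9) and of ceh-48 at 7.19 (5.28 to 10). The lowest were ceh-83 at 0.00916 (1 read against 49), ceh-60 at 0.0886 and ceh-49 at 0.14 (10 reads against 32).

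At 48 to 52 h, 4 members were higher in males and 14 lower, 10% and 35%, against 29% and 21.9% of all tested genes. The highest ratios were those of ceh-48 at 43.9 (24.9 to 85.7), ceh-89 at 5.73 (2.62 to 14.3) and ceh-62 at 4.41. Among the lowest, ceh-49 had no read in males against 265 in hermaphrodites (ratio at most 0.0144), ceh-83 had a ratio of 0.017, and ceh-40 had no read in males against 61 in hermaphrodites (at most 0.0626). At 54 to 58 h, 6 were higher and 13 lower, 15% and 32.5%, against 30.7% and 25.3% of all tested genes. Here ceh-48 had a ratio of 63.7 (34.4 to 134), ceh-6 of 7.91 and ceh-63 of 5.85, and the lowest were ceh-83 at 0.0259, ceh-49 at 0.0269 and ceh-40, with no read in males against 71 in hermaphrodites, at 0.0483 or less. At each of the 5 windows ceh-48 was among the members counted as higher in males and ceh-60 among those counted as lower.

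Some ceh genes lie side by side, and neighbours did not always share a course. A run of CUT genes stands on the minus strand of chromosome X in the order ceh-41 (positions 1846608 to 1848675), ceh-21 (1848779 to 1852736) and ceh-39 (1853874 to 1856172, WBcel235), with 103 and 1137 bases between them. ceh-21 and ceh-39 were both called lower in young adult males. ceh-41 had 5.47, 3.24, 1.28, 3.02 and 1.39 CPM in males and 3.86, 1.83, 1.26, 4.62 and 5.87 CPM in hermaphrodites, and its young adult ratio of -1.25 ± 0.52 was not called (edgeR adjusted p = 0.081).

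On chromosome II, ceh-81, ceh-82 and ceh-83 lie within positions 1730403 to 1736533. Only ceh-83 of these was tested. ceh-82 had 26 reads in young adult hermaphrodites and none in males, at least 7.18-fold lower in males, and ceh-81 had 2 reads in all 10 libraries. The Six-type genes ceh-34 and ceh-33 lie 3616 bases apart on chromosome V, and ceh-33 alone was called in young adults; the difference between the neighbours was not tested.

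**Figure D5:**
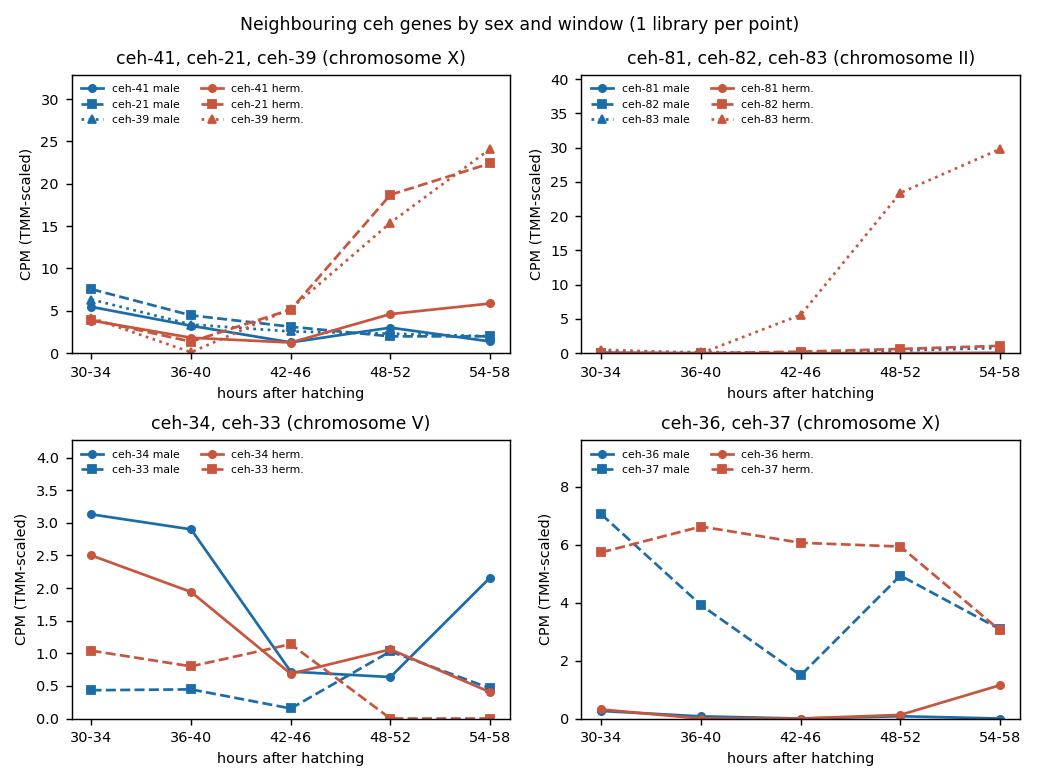
CPM (TMM-scaled, linear axes from 0) at the 5 windows for 4 groups of neighbouring ceh genes, with males in blue and hermaphrodites in red, 1 library per point and line style by gene. Hermaphrodite levels of ceh-21 and ceh-39 reach 22.4 and 24.1 CPM at 54 to 58 h, and ceh-41 reaches 5.87 CPM; ceh-83 reaches 29.8 CPM and its neighbours stay near or under 1 CPM.

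By chromosome, 13 of the 18 X-linked members and 27 of the 45 autosomal members were tested. In young adults 2 X-linked members were higher in males and 4 lower (15.4% and 30.8% of those tested), with a median log2 ratio of -0.97. Of the autosomal members 6 were higher and 9 lower (22.2% and 33.3%), with a median of 0.09. Over all tested genes the shares were 33% and 29.4%, so the shares called lower lay near that of all genes in both groups. No test was made between these groups.

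The 23 members below the filter had 2 to 89 reads over the 10 libraries, with a median of 21 and a highest level of 1.94 CPM. They include 5 of 6 paired-like genes, 3 of 5 NK genes and the engrailed gene ceh-16, which is known from epidermal seam cells. The Otx gene ceh-36, known from AWC and ASE sensory neurons, had 0.261, 0.0744, 0, 0.0795 and 0 CPM in males and 0.313, 0, 0, 0.125 and 1.15 CPM in hermaphrodites. A count of 0 in a library allowed a level of up to 0.112 to 0.343 CPM (3 reads in that library). Apart from the read ratios of ceh-24 and ceh-82 given above, no sex difference is reported for these genes at this depth.

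The homeobox genes with other names give a frame for the ceh genes. Of 39 such genes, 30 were tested. The test over the course called 4 of the 30 higher in males and 0 lower, against 15.3% and 3.56% of all tested genes. Among the 4, the posterior Hox gene egl-5 had a log2 ratio of 3.45 ± 0.35 (edgeR adjusted p = 0.00302), the Prospero gene pros-1 one of 2.64 ± 0.52 (0.0252) and the Pax6 gene vab-3 one of 2.09 ± 0.58 (0.0437). In young adults 9 of the 30 were higher in males and 3 lower, against 8 and 13 of the 40 ceh genes (20% and 32.5%). Over all tested genes 33% were called higher and 29.4% lower in that comparison. The 3 lower were the caudal gene pal-1 at -2.95 ± 0.24 (0.000553), duxl-1 at -2.24 ± 0.46 (0.00763) and unc-62. The median young adult log2 ratio was 0.84 over these 30 genes, and whether the lists differ was not tested.

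pal-1, which is deposited in oocytes and patterns the posterior embryo, had 7.56, 11.3, 18.6, 14.5 and 16.3 CPM in males and 9.38, 8.68, 35.2, 105 and 133 CPM in hermaphrodites. Its hermaphrodite levels stood above all male levels from late L4 on, as those of ceh-38 did. Those of ceh-92 and ceh-100 did so from early L4 on, ceh-100 only just (46.7 CPM there, against a highest male level of 46.6 CPM). The slope of pal-1 in hermaphrodites was 1.11 ± 0.16 (edgeR adjusted p = 0.00161).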

How the data were processed

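Whole-animal RNA of a him-5 strain was sequenced from 10 libraries, 1 per sex and window. The authors deposited whole-number counts of reads for each gene, and the submitters' processing notes name CASAVA 1.8 and HTSeq. Aligner, genome build and strand setting: not given in the sources used here. The 5 totals that name no gene were left out: as shares of all reads, 2.18% to 3.98% fell on no feature, 0.32% to 0.75% were ambiguous, 3.31% to 25.38% were not aligned and 11.23% to 17.83% aligned to several places. Such reads went to no gene, so close paralogs are read with uncertainty, and 17 members share exon bases with another gene.

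Of 46589 sequence names, 45624 were matched uniquely to Ensembl release 115 (WBcel235) and 965 were not. Positions count from 1. A gene entered the tests when 2 or more libraries reached 1 CPM (15924 genes), on the deposited counts in edgeR 4.0.16 (R 4.3.3; TMM; quasi-likelihood test; Benjamini-Hochberg over all tested genes, threshold 0.05). Residual degrees of freedom were 4 for sex over the course (window as a block), 6 for slopes, 3 for their difference (window as a block) and 2 for young adults. Errors after ± are approximate: the log2 value over the root of the F statistic. Intervals of read ratios are 95% exact binomial, and they and the floor of 3 reads cover counting error only. Fits were tested on simulated data.

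Alternatives were RLE factors, library size only, scaling to 12 pan-neuronal genes, DESeq2 1.42.0, limma-voom (limma 3.58.1), other filters and thresholds, no block, and leaving out libraries or windows. Members, lists and rules were chosen with earlier results of these data known. Named were all called members, ceh-13, ceh-18, ceh-20, ceh-22, ceh-24, ceh-30, ceh-36, ceh-39 and ceh-60, the 5 with the highest level per kb, and the 3 highest and 3 lowest CPM ratios of each window among the members counted there. Other members named in the text were chosen after their values were seen.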

Additional observations from a re-analysis of the deposited data

Results flagged for a closer look

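The slope over the 5 windows differed between males and hermaphrodites for 4 ceh genes and 4 other homeobox genes, by a test of the difference itself (edgeR's quasi-likelihood test, all tested genes adjusted together). In log2 per step of 6 h, males minus hermaphrodites, the differences were 1.2 for ceh-48, -1.36 for ceh-21, -0.54 for ceh-38 and -0.43 for ceh-100. Among the other homeobox genes they were 0.7 for pros-1, -0.87 for pal-1, -0.91 for duxl-1 and -0.43 for unc-62. With 3 residual degrees of freedom and 1 library per sex and window, these calls were lost for all 4 ceh genes when the window of 36 to 40 h, 42 to 46 h, 48 to 52 h or 54 to 58 h was left out. In each of these fits 0 of the 15924 tested genes were called, so the loss was not particular to the ceh genes.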

How the results depend on the processing

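Over the course, 3 members were called, against 17 with pan-neuronal scaling, 13 by DESeq2, 10 by limma-voom, 8 with no block for window, 0 at a threshold of 0.01 and 0 without the male library of 42 to 46 h. Leaving out 1 window gave 0 to 4. Male slopes gave 0 calls, and 1 by DESeq2. Hermaphrodite slopes gave 12, against 6 with at least 5 CPM in 5 libraries, 4 at 0.01 and 3 to 12 with 1 window left out. With pan-neuronal scaling 12 members were rising and 0 falling in place of 8 and 4. Over all tested genes that scaling gave 5853 rising and 507 falling in place of 3332 and 2684. The loss of falling calls was thus not particular to the ceh genes. The slope difference gave 4 (1 higher and 3 lower), against 1 with library size only (0 and 1), 11 with pan-neuronal scaling (0 and 11), 11 by DESeq2, 7 by limma-voom, 0 at 0.01, 0 without either male library of 42 to 46 h or 54 to 58 h, and 0 to 5 with 1 window left out. In young adults 21 were called, against 7 with the stricter filter, 13 at 0.01 and 13 to 17 with 1 library left out, where the lone library is assumed to vary like the other sex. Counts over all 15924 tested genes changed too. Over the course they were 3003, against 8613 with pan-neuronal scaling, 5920 by DESeq2, 5258 by limma-voom and 3977 with no block. For hermaphrodite slopes they were 6016, and 2931 at 0.01. For the slope difference they were 2519, against 1407 with library size only, 5649 with pan-neuronal scaling and 0 at 0.01. Without either male library of 42 to 46 h or 54 to 58 h they were 0 as well. In young adults they were 9946, and 6899 at 0.01. Under pan-neuronal scaling the young adult ratios of ceh-18 and ceh-20 turned to -0.74 and -1.91. Of the other homeobox genes 13 were called in at least 1 test, and 7 at 0.01. At 4-fold, the single windows held 1, 1, 6, 9 and 10 members in order of time, in place of 3, 9, 11, 18 and 19. The share of all tested genes at 4-fold is not given here, so the rise is not read as particular to the members. At 2-fold that share rose from 16.1% at the first window to 56% at the last. The causes were not tested, apart from fewer genes or libraries in the stricter settings. No paired analysis by replicate number was possible because each sex has 1 library per window. Depth limits the 23 untested members.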

Other observations

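Within young adulthood, hermaphrodites of 54 to 58 h were set against those of 48 to 52 h, 1 library each, with no test. Of the 40 members with at least 10 reads in the pair, 14 had a read ratio whose interval lay above 1 and 3 one whose interval lay below 1. These are 35% and 7.5%, against 30.4% and 24.8% of the 13457 tested genes with as many reads. The sets are unlike, since these 40 were drawn from all 63 members and are not the 40 tested ones. They include ceh-5, ceh-10, ceh-36, ceh-51 and ceh-82, which were not tested. The genes named here were chosen after their values were seen; intervals are 95% exact binomial and cover counting error only. The Six-type gene ceh-32 had 136 reads at 54 to 58 h and 61 at 48 to 52 h, a ratio of 2.41 (1.77 to 3.32). The Distal-less gene ceh-43 had 76 and 33 reads (ratio 2.49, 1.63 to 3.87), and ceh-86 had 172 and 74 (2.51, 1.9 to 3.35). The Otx gene ceh-36 had 17 and 2 reads (9.19, 2.18 to 82), and ceh-10, known from the interneuron AIY, had 17 and 3 (6.12, 1.77 to 32.6). The 3 members with intervals below 1 were ceh-18 with 68 and 117 reads (0.628, 0.459 to 0.854), ceh-37 with 45 and 95 (0.512, 0.351 to 0.737) and ceh-88 with 15 and 34 (0.477, 0.241 to 0.899), and ceh-34 had 6 and 17 (0.381, 0.123 to 1.01). Over all windows the summed level of 7 early embryonic genes was 0.595 to 1.85 CPM in males, and 1.04, 0, 2.74, 19.8 and 35.2 CPM in hermaphrodites in order of time. The part of embryos held in the animals was not tested.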
